A study of Homo sapiens with 6 samples.

Results

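Introns of 100 kb or more were taken from the transcript annotation deposited for the glioma line U-87 MG, in which an intron is the gap between neighbouring exons of an isoform that do not overlap, each distinct gap being counted once. Of 138855 introns in 12462 genes, 535 were at least 100000 bases long, which is 0.385% of the introns. They lay in 413 host genes. The annotation was built for a study of U-87 MG, an established human glioblastoma cell line, with 3 poly(A)-selected RNA libraries from cells given only the solvent DMSO (10 ul in each 10 ml of medium) and 3 from cells given EPZ015666 at 10 uM, both for 72 h. EPZ015666 blocks PRMT5, an enzyme that methylates arginine. No genetic change separated the groups, and nothing in the labels says whether the replicates came from separate cultures. The annotation is 1 table for all 6 libraries and holds positions but no values per library, so EPZ015666 was not compared with DMSO and no depth could be given. The shares below have Wilson 95% intervals, which cover counting error only, because introns of 1 gene are not independent of each other. No test was made, and a difference between shares is given as a description.

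Introns are cut out of the primary transcript by the spliceosome, which joins the exons on either side of each one. Most human introns are short, but some genes, among them many that build synapses, guide axons or hold cells together, carry introns that take the polymerase a long time to cross. In such genes the first introns are often the longest, the transcript can end early at a polyadenylation site inside an intron, and other genes or microRNAs can lie within it. PRMT5 methylates the Sm proteins, which are core parts of the spliceosome.

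The exon junctions left after removal of 10 of the longest members are shown so that the sense of each splice can be read from its bases. Each run is 30 bases of the spliced transcript, 5′ to 3′, with the last 3 bases of the exon before the intron and the first base of the exon after it in capitals. They were read from GENCODE release 29 transcripts of the same gene that splice out an intron of exactly the same length, and they are exon sequence only.
NRXN3: accagtgcaatgATCCtggcgctacgtaca
NLGN1: gacttggagtacTCGGtttcttgagtacag
MAGI2: agtgtgtcaagcAAGGaggaattgttgata
MDGA2: gccaaggagtgtACGCtcctcccacggttc
LRP1B: agtctttagataCCTGtcccgaggaggtag
RAD51B: gagttttcaatcCCAGttatcttgacgaat
SMYD3: gaagcctttgcaAAAGtgatctgcaactct
LSAMP: cacagccatcctCAGGtgcgttgtagaaga
NEGR1: cacggcggtgctTAGGtgttatttggaaga
PDE4B: tgtaagccaggaGTGCtttgatgtggaaaa
The intron of NRXN3 (a presynaptic neurexin), NLGN1 (its postsynaptic partner family, the neuroligins), MAGI2 (a synaptic scaffold), MDGA2 (an adhesion protein that binds neuroligins) and LRP1B (a large lipoprotein-receptor family member) falls after the first base of a codon, which is called phase 1. RAD51B, a recombination-repair protein, and SMYD3, a lysine methyltransferase, are cut between codons (phase 0). LSAMP and NEGR1, which are related adhesion molecules of the IgLON family, and the phosphodiesterase PDE4B are cut after the second base (phase 2). LSAMP and NEGR1 end the exon on CAG and TAG, and both next exons begin with G. Over the 421 members with a reference intron of the same length, the exon before ended in CAG or AAG in 42.3% and the exon after began with G in 47.7%. Over all introns matched in the same way these shares were 42.8% and 48.7%, so the exon side of the splice sites differed little between long introns and the rest. The 15 bases before the junction were 50.5% G and C in the members and 49.8% in all introns, and the 15 bases after it were 46% and 48.4%.

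Members also held microRNA genes, and 11 mature sequences from the 8 longest same-strand hosts are shown because they sit in introns that have to be transcribed whole before the exons on either side can be joined. MicroRNAs are short RNAs that repress messages paired with their seed, bases 2 to 8, which is in capitals below. Sequences are from RefSeq, and each host gene is given in brackets.
hsa-miR-605-3p (PRKG1): aGAAGGCAcuaugagauuuaga
hsa-miR-605-5p (PRKG1): uAAAUCCCauggugccuucuccu
hsa-miR-586 (SUPT3H): uAUGCAUUguauuuuuaggucc
hsa-miR-581 (ARL15): uCUUGUGUucucuagaucagu
hsa-miR-4798-3p (SORCS2): aACUCACGaaguauaccgaagu
hsa-miR-4798-5p (SORCS2): uUCGGUAUacuuugugaauugg
hsa-miR-5699-3p (DIP2C): uCCUGUCUuuccuuguuggagc
hsa-miR-5699-5p (DIP2C): uGCCCCAAcaaggaaggacaag
hsa-miR-1305 (TENM3): uUUUCAACucuaaugggagaga
hsa-miR-4306 (CLYBL): uGGAGAGAaaggcagua
hsa-miR-7854-3p (CMIP): uGAGGUGAccgcagaugggaa
Their hosts include PRKG1, a cyclic GMP-dependent kinase, SORCS2, a sorting receptor, and TENM3, a teneurin of synaptic adhesion. MIR605 lay 146.2 kb into the 314392-base intron 3 of PRKG1, and MIR1305 lay 24.5 kb into the 179191-base intron 1 of TENM3. In all, 35 microRNA genes lay in 34 of the 421 matched members (8.08%), 27 on the host strand and 8 on the other strand, in 33 hosts. The share of matched introns with a microRNA gene was 3.21% at 50 to 100 kb and 0.937% at 10 to 50 kb. It was 0.259% at 1 to 10 kb and 0.3% under 1 kb. None of the 46 mature sequences shared its seed with another of them. A member offers much room for such a gene. Per megabase, members held 0.543 microRNA genes, close to the 0.483 of introns of 10 to 50 kb and the 0.481 of introns of 50 to 100 kb. This was fewer than the 0.895 of introns of 1 to 10 kb and the 7.54 of introns under 1 kb.

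The members were chosen by length, so their lengths are a description. They ran from 100021 to 479079 bases, with a median of 132298 and quartiles of 113277 and 166427. Of the 535, 82 reached 200 kb, 28 reached 300 kb and 6 reached 400 kb. Together they covered 83.2 Mb, which is 12.2% of the 680.3 Mb of summed intron length in the annotation. The members nearest the threshold were introns of MYO1E (100048 bases), SBF2 (100027) and CUX1 (100021), each the first of its gene. The nearest introns that fell short were in PLCE1 (99921), HS3ST2 (99848) and DENND1A (99672).

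The longest member was intron 12 of 14 in NRXN3, 479079 bases at chromosome 14, 79454485 to 79933563 (hg19, as are all positions here). CDH4, which encodes the adhesion molecule R-cadherin, followed with 473799 bases at chromosome 20, 59844820 to 60318618, its intron 3 of 16. The next 3 were intron 3 of 4 in NLGN1 (467482 bases), intron 1 of 19 in MAGI2 (445813) and intron 1 of 29 in DCC, the netrin receptor of growing axons (411175). RAD51B had 404679 bases in its intron 7 of 11 and SMYD3 397263 bases in its intron 6 of 13, and neither gene is an adhesion or synaptic gene. The remaining hosts among the 15 longest were the potassium channel KCNQ5 (381315 bases), MAGI2 again with its intron 2 (379850), MDGA2 (372966), NAALADL2 (359043), LSAMP (358320), the scaffold MAGI1 (353867), NEGR1 (347007) and FGF13, a growth factor homologue that acts inside the cell (345736). In 5 of these 15 the member was the first intron of the gene.

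Members lay early in their genes. On the isoform with the most introns, 188 of 535 were the first intron, 35.1% (31.2 to 39.3%), against 9.07% of all introns. The intron counts of the host isoforms alone would put 12.1% of the members first. The share of first introns climbed with length, from 6.57% under 1 kb through 8.2% at 1 to 10 kb and 21.3% at 10 to 50 kb to 32.9% (30.4 to 35.4%) at 50 to 100 kb. Members of 100 to 200 kb were first in 34.4% and those of 200 kb or more in 39% (29.2 to 49.8%), and these 2 intervals overlap each other and that of the 50 to 100 kb introns. The shortest introns, of 60 to 100 bases, were first in 3.58%.

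**Figure D1:**
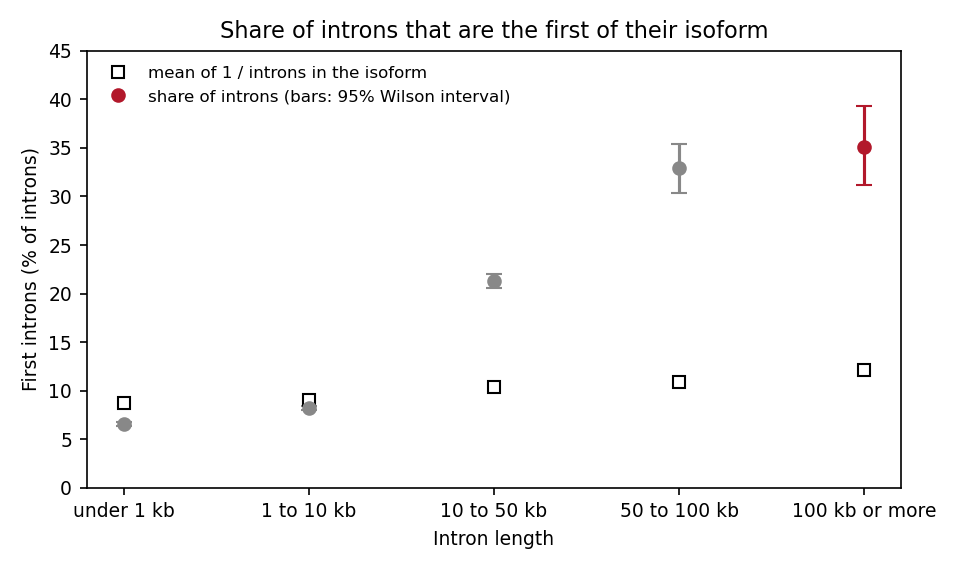
Share of introns that were the first of their gene, by intron length, with Wilson 95% intervals as bars. The share climbs with length to 35.1% in introns of 100 kb or more, against 9.07% over all introns.

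The second position held 100 members (18.7%, against 8.64% of all introns), and the third held 73 (13.6%). The fourth held 38, the fifth 27 and all later positions 109 together. When first introns were left aside, the 344 later members in genes with a place to measure had a mean position of 0.302, where 0 is the second intron and 1 is the last, and introns under 100 kb had 0.501. The last intron held 41 members (7.66%, 5.7 to 10.2%, against 9.07% of all introns). In 10 members the intron was the only one of its isoform.

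Hosts had somewhat more introns than other genes, with a median of 12 (quartiles 8 and 20) against 8. Their median span was 338.2 kb against 27.6 kb, but every host spans over 100 kb by the rule that chose it, so this is a description of the choice. The share of genes that were hosts was 1.59% with 1 to 4 introns, 2.75% with 5 to 8, 3.74% with 9 to 14, 4.84% with 15 to 24 and 5.98% with 25 or more. Over all genes it was 3.31%. A member took up a median of 37.3% of its gene's span, over 50% of it in 167 cases and over 90% in 16. Among those 16 are the only intron listed for BCL2, the inhibitor of apoptosis (190414 bases), and the only one listed for FHIT (170024), a gene of a chromosomal fragile site. BCL2 is 1 of 8 hosts with a name in the reference but no listed intron of a reference length.

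Long introns kept company. The other introns of the hosts had a median length of 4114 bases, against 1400 in other genes. The intron just downstream of a member had a median of 20201 bases (494 such introns, 68% of them 10 kb or longer). After introns of 10 to 100 kb the next intron had a median of 4166 bases, and after introns under 10 kb 1243 bases. Of the 413 hosts, 326 had 1 member, 64 had 2, 15 had 3, 4 had 4 and 4 had 5. In 49 genes members were next to each other, 61 such pairs in all, and no member overlapped another of the same gene.

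The 4 genes with 5 members were PRKG1, CDH13 (a cadherin without a cytoplasmic domain), NAALADL2 and PTPRD (a receptor-type tyrosine phosphatase of the synapse). The members of PRKG1 were its introns 3 to 7 in a row, with lengths of 314392, 100589, 109097, 102816 and 146913 bases. The exon listed just before its intron 5 was itself 127062 bases long. In CDH13 they were introns 5, 6, 9, 11 and 12, in NAALADL2 introns 4, 5, 6, 8 and 12, and in PTPRD introns 1, 2, 4, 6 and 9. GPC6, a glypican that anchors growth factors at the cell surface, had its first 4 introns as members, of 317646, 284732, 197184 and 258454 bases. The other genes with 4 were the phosphatase PTPRM (introns 1, 2, 7 and 14), GMDS, an enzyme of GDP-fucose synthesis (1, 4, 7 and 9), and MAGI2 (1, 2, 3 and 6). The hosts with 3 were FRMPD4, BNC2, CTNND2, ZFPM2, PARD3, RBMS3, CTNNA2, FOXP2, NKAIN3, NRXN3, ZBTB20, LRP1B, SORCS2, C7orf10 and EXOC4, among them the catenins CTNND2 and CTNNA2, the polarity protein PARD3 and the transcription factors FOXP2, BNC2 and ZBTB20.

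Some related genes carried a member at the same rank and others did not. Rank was counted on each gene's own listed isoform, so it need not mark the same intron in 2 genes. The neuronal and glial transcription factors NFIA and NFIB both had one in intron 2, of 188839 and 127208 bases. PARD3 and PARD3B each had members in introns 1 and 2. TENM2, TENM3 and TENM4 each had one in intron 1, of 120793, 179191 and 142964 bases. The exons after these introns differed in length, with 210, 307 and 56 bases. TENM3 and TENM4 had another member further on, in introns 4 and 7. The ephrin receptors EPHA3 and EPHA5 had theirs in intron 3, of 130395 and 106097 bases. Among the DOCK genes, DOCK1, DOCK3, DOCK4, DOCK9 and DOCK10 had a member in intron 1, and DOCK3 had a second, longer one in intron 6. The ephrin receptor EPHB1 had its member in intron 1, unlike EPHA3 and EPHA5. GPC5 and GPC6 had their longest members in introns 2 and 1, GLIS1 and GLIS3 in introns 1 and 4, and EBF1 and EBF2 in introns 7 and 6. GPC6 had a member in intron 2 as well, of 284732 bases. The members of EBF1 and EBF2 lay between exons of the same lengths, 69 bases before and 82 after. Over 27 groups of hosts whose symbols are alike but for the final number, 21 of 55 pairs (38.2%) had the longest member at the same rank, 9 of them among the DOCK and TENM genes. Over all pairs of hosts the share was 22.7%. Rank sorted some pairs otherwise than the lengths of the exons beside the intron. FGF12 and FGF14, at ranks 2 and 3, both had exons of 104 and 199 bases there. FGF13, at rank 3 like FGF14, had 37 and 168. The longest members of MAGI1, MAGI2 and MAGI3, at ranks 2, 1 and 1, were all followed by an exon of 117 bases. How many pairs this concerns was not tested.

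Where a reference transcript of the gene has an intron of the same length, its place in the message could be read. Of the 421 such members, 350 lay between coding exons (83.1%, against 88.9% of all matched introns), 62 in the 5′ UTR (14.7% against 4.68%), 4 in the 3′ UTR and 5 in noncoding transcripts. All but 1 of the 5 members of PTPRD were of the 5′ UTR class, as was the member of the synaptic vesicle calcium sensor SYT1. Among the 350 coding members, 43.7% were phase 0, 40% (35 to 45.2%) phase 1 and 16.3% (12.8 to 20.5%) phase 2, and over all matched coding introns these were 46.8%, 30.8% and 22.4%. The phase 1 share was 42.5% in first and second members (35.6 to 49.8%), against 35.8% of first and second introns of 10 to 100 kb and 34.8% of those under 10 kb. It was 37.3% in later members (30.3 to 44.8%), against 32.5% of later introns of 10 to 100 kb and 30% of those under 10 kb. Both of these phase 1 values for introns of 10 to 100 kb lie inside the intervals of the members. With all ranks together, introns of 10 to 100 kb were phase 1 in 33.4% and phase 2 in 22.1%, both outside the intervals of the members. Phase 2 was 15.5% in first and second members (10.9 to 21.4%), against 21.9% of such introns of 10 to 100 kb. In later members it was 17.2% (12.2 to 23.6%), against 22.1%. The exon before a member had a median length of 126 bases and the exon after it 125.5, when first and last exons were left out, and over all introns both medians were 123.

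An early end was counted where the 3′ edge of a final exon of the same gene lay inside an intron. Of the 535 members, 41 held at least 1 early end, 7.66% (5.7 to 10.2%), against 1.56% of all introns. With final exons wholly inside the intron alone it was 12 members (2.24%), against 0.252% of all introns. Long introns have more room, and per megabase the order was the reverse. Members held 54 end positions, or 0.649 per Mb, against 0.931 in introns of 50 to 100 kb, 2.2 at 10 to 50 kb, 6.3 at 1 to 10 kb and 10.9 under 1 kb. The other 5786 introns of the hosts held an end in 124 cases, 2.14%.

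**Figure D2:**
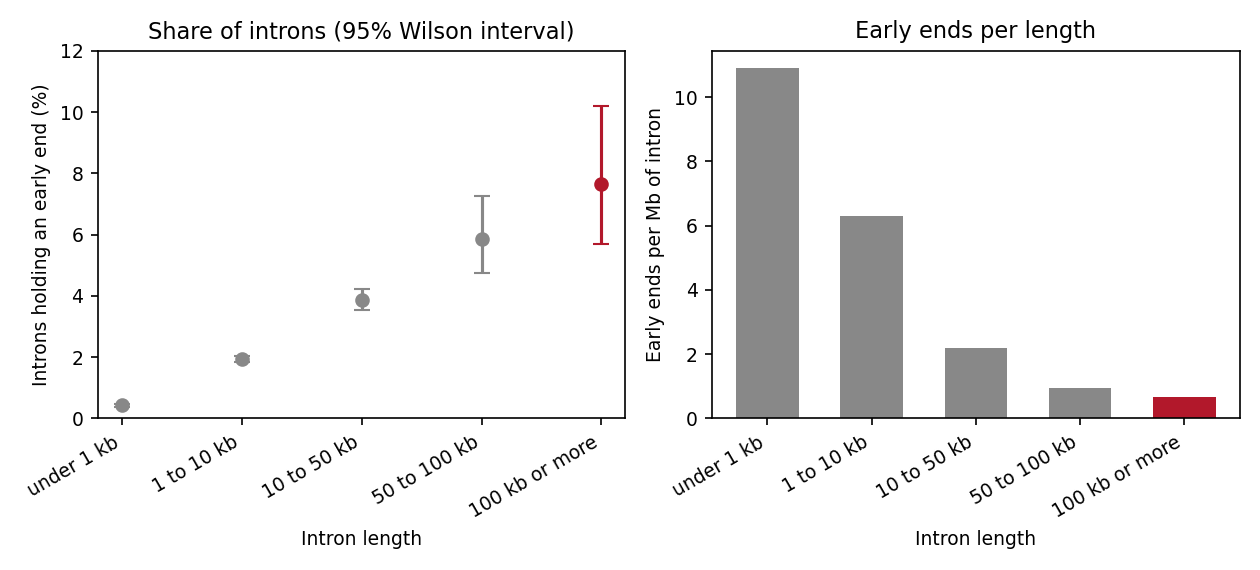
Early ends by intron length, as the share of introns with an end (with Wilson 95% intervals) and as ends per megabase of intron. The share climbs to 7.66% in introns of 100 kb or more while the rate per megabase drops to 0.649.

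An early end was found in 4 of 188 first-intron members (2.13%) and in 37 of 347 later ones (10.7%). Introns of 50 to 100 kb showed the same order, with 0.909% of first and 8.34% of later ones. How much of this gap comes from the definition was not tested. A final exon that runs into the first intron has no exon ahead of it on that isoform. Both first-intron members with such an exon, in ZNF536 and NPAS3, had it from an isoform of 1 exon. With final exons wholly inside alone, the counts were 2 first-intron members (1.06%) and 10 later ones (2.88%).

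The ends lay toward the start of the intron. Their median distance from the upstream exon was 35.7 kb, or 24% of the intron, with 40 of 54 in the first 50% and 13 in the first 10%. The nearest was 0.129 kb into the intron of DIAPH3, and the farthest 194.3 kb into that of PDZRN3. Of the 54 positions, 47 belonged to a final exon that began ahead of the intron and ran into it. A final exon wholly inside the intron gave 18, and 11 of the positions were of both kinds. The 49 exons that ran in had a median length of 36635 bases, and 37 of them were 10 kb or longer. The 26 that lay wholly inside had a median of 1525 bases. No member held an internal or first exon of another isoform of its gene, and neither did any other intron of the annotation.

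The most end positions, 5, lay in intron 2 of 26 in FARP1, which is 130348 bases long. GABRG3, a subunit of the GABA receptor, had 4 in its 149086-base intron 6 of 10, at 18.8, 34.8, 87.2 and 96.8 kb from the exon before it. CENPP, a kinetochore protein, had 3 in its 231454-base intron 5 of 7, at 76.3, 115.5 and 136.9 kb. The position at 115.5 kb in CENPP, 95257595 on chromosome 9, is also the 3′ edge listed for ECM2 on the other strand. CAMKMT, NFIA, PLEKHA5 and SLC39A11 had 2 each. In NFIA they were 36.5 and 44.3 kb into intron 2, both in exons that ran on from the exon before. In ANK2 (an ankyrin that ties membrane proteins to spectrin), RABGAP1L and FARP1 a final exon listed for another isoform spanned the whole member, of 165395, 150698 and 130348 bases.

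Another listed gene lay wholly inside 5 of the 535 members, 0.935% (0.4 to 2.17%), against 0.036% of all introns. Per megabase this was 0.0601 genes in members and 0.0735 in all introns. Intron 1 of CMSS1 held FILIP1L (131 bases listed), intron 5 of CENPP held ECM2 (an extracellular matrix protein gene, 11137 bases and 4 introns), and intron 1 of THRB, the thyroid hormone receptor beta gene, held its antisense THRB-AS1 (404 bases). Intron 5 of PRKG1 held CSTF2T, a retrogene for a cleavage stimulation factor subunit (160 bases listed), and intron 1 of TBC1D3H held the chemokine gene CCL3L1 (146 bases). Of these, CCL3L1 alone was on the strand of its host. ECM2 was the only one listed with introns, and the listed spans of the other 4 ran from 131 to 404 bases. TBC1D3H and CCL3L1 belong to families of near-identical copies, so reads may be split between copies and their listing is uncertain. When partial overlap was counted as well, 13 members touched 14 other genes, 11 of them on the opposite strand. Among these pairs were SUPT3H with RUNX2, the bone transcription factor, MCPH1 with ANGPT2, and MAGI2 with MAGI2-AS3.

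Hosts were frequent among adhesion, guidance and synaptic genes. Of 31 immunoglobulin adhesion and guidance receptors with introns, 9 were hosts (29%, 16.1 to 46.6%), against 3.31% of all genes with introns. Their longest members were in DCC, LSAMP, NEGR1 and NCAM2 (281961 bases), a neural cell adhesion molecule. In 8 of the 9 the longest member was intron 1 of the listed isoform, LSAMP being the exception with intron 2. The exon listed before the LSAMP member was 200424 bases long. Like intron 1 of NEGR1, the LSAMP member was phase 2 and was followed by an exon of 233 bases. Of 53 ephrin, semaphorin, plexin, slit, netrin and teneurin genes 11 were hosts (20.8%), led by the ephrin EFNA5 (242132 bases), the semaphorin receptor PLXNA4 (191069), TENM3 and TENM4. Cadherins and catenins had 7 hosts of 42 (16.7%), with CDH4 followed by PCDH7 (192257), CDH13 (173536) and CTNND2 (171544). Of 56 synaptic scaffold and adhesion genes 9 were hosts (16.1%), with NRXN3, NLGN1, MAGI2 and MAGI1 the longest. Integrin, laminin, collagen and proteoglycan genes had fewer, 6 of 85 (7.06%, 3.28 to 14.6%), and the interval reaches the share of all genes. Their longest were in GPC6, GPC5 (244264), SPOCK1 (231317) and SPOCK3 (171447).

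Signalling and channel genes showed the same order. Receptor-type tyrosine phosphatases had 4 hosts of 16 (25%), PTPRD (307172 bases), PTPRG (240642), PTPRM (206257) and PTPRJ (129049). Cyclic nucleotide phosphodiesterases had 4 of 16 (25%), PDE4B (328624), PDE4D (196839), PDE1C (170692) and PDE7B (161206). Growth factor receptors and ligands had 12 of 51 (23.5%), with FGF13, the orphan receptor ROR1 (234797), IGF1R (183217) and FGF12 (164704). Neurotransmitter receptors had 3 of 22 (13.6%, 4.75 to 33.3%), which are GABRG3 (299987), GABRB1 (128764) and the serotonin receptor HTR7 (107538). Calcium, potassium and sodium channels had 6 of 59 (10.2%), with KCNQ5, CACNA1C (297719), CACNA2D1 (164525) and ANO10 (116992), the last a member of the anoctamin family.

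Genes of the cell nucleus divided. Developmental transcription factors had 31 hosts of 102 (30.4%, 22.3 to 39.9%), with EBF1 (233285 bases), ZBTB20 (193136), NFIA (188839) and GLIS3 (180578) the longest. Chromatin modifiers had 4 of 115 (3.48%, 1.36 to 8.6%), which are JARID2 (127532), KAT6B (116491), HDAC8 (110165) and ARID1B (101258), a share close to the 3.31% of all genes. RNA-binding regulators of splicing and stability had 3 of 67 (4.48%), RBMS3 (152989), MSI2 (128204) and IGF2BP2 (124805). DNA repair genes had 1 of 77 (1.3%), the RAD51B intron named above. None of 84 core spliceosome genes (up to 4.37%), 68 oxidative phosphorylation subunits (up to 5.35%) or 78 cytosolic ribosomal protein genes (up to 4.69%) was a host, and each of these upper bounds lies above 3.31%.

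The highest share was in a list of genes of common fragile sites, places where chromosomes break under replication stress, with 12 hosts of 21 (57.1%, 36.5 to 75.5%). These genes are known for their size, so the list is not independent of length. MAGI2, NAALADL2, LSAMP and LRP1B (329745 bases) led it. Dystrophin-complex, ankyrin and spectrin genes had 8 of 27 (29.6%), with DTNA (185953), ANK2 (165395), SGCD (163923) and DST (116107). Of the 20 lists with 8 or more genes, 16 had a higher share of hosts than all genes with introns. In all 141 of the 413 hosts were on a list and 272 were on none.

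**Figure D3:**
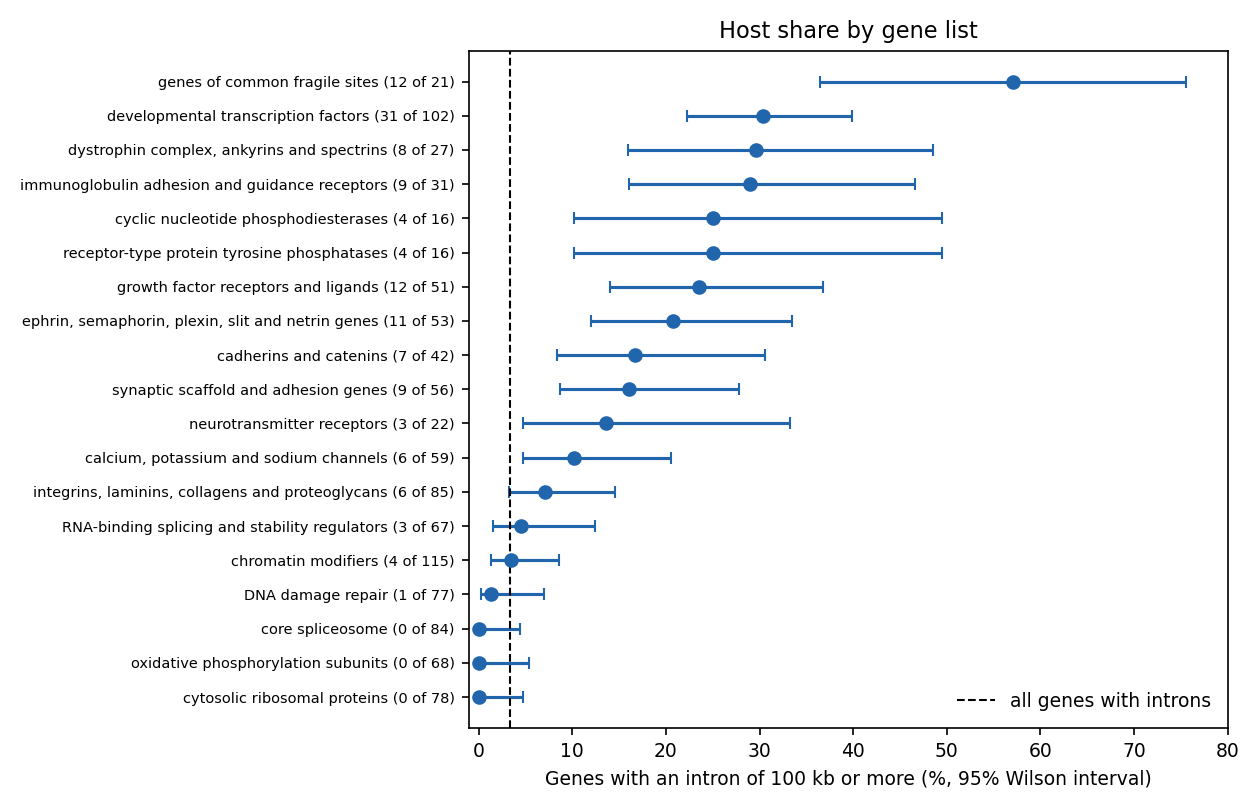
Share of the genes of each list that host an intron of 100 kb or more, with Wilson 95% intervals as bars and the 3.31% of all genes with introns as a line, for the lists reported here. Fragile-site genes have the highest share at 57.1%, and the ribosomal, respiratory and spliceosome lists are at 0.

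Hosts named for neurons or synapses do not show which cell types were present, since a listing is no level of expression. Of all protein-coding genes of the reference 61.5% were listed. Of 10 astrocyte markers 5 were listed, SLC1A3, S100B, GJA1, SOX9 and ALDOC, and GFAP and AQP4 were not listed under those names. Of 17 neuron markers 9 were listed, of 11 oligodendrocyte markers 5, of 9 myeloid markers 3 and of 9 endothelial markers 4. Among these the hosts were SYT1 (170140 bases, intron 5 of 12) and the locus named S100B (144136 bases, intron 1 of 20). The S100B name goes against the reference, which has none of the 20 intron lengths listed for it, so its name is in doubt and 4 astrocyte markers are listed without it. Without that locus there were 534 members, 187 of them first introns (35%), and 12 members touched 13 other genes.

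Members were unevenly spread over the chromosomes. Chromosome 18 had 28 members among 2240 introns, or 12.5 per 1000, and 10.6% of its genes with introns were hosts. Chromosomes 8 (6.62 per 1000), 3 (6.61) and 5 (6.08) followed. Chromosome 19 had 1 member among 7083 introns, or 0.141 per 1000, in the zinc-finger gene ZNF536. Chromosomes 20 (1.48) and 17 (1.61) were also low. The median intron length was 2550.5 bases on chromosome 18 and 707 on chromosome 19.

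**Figure D4:**
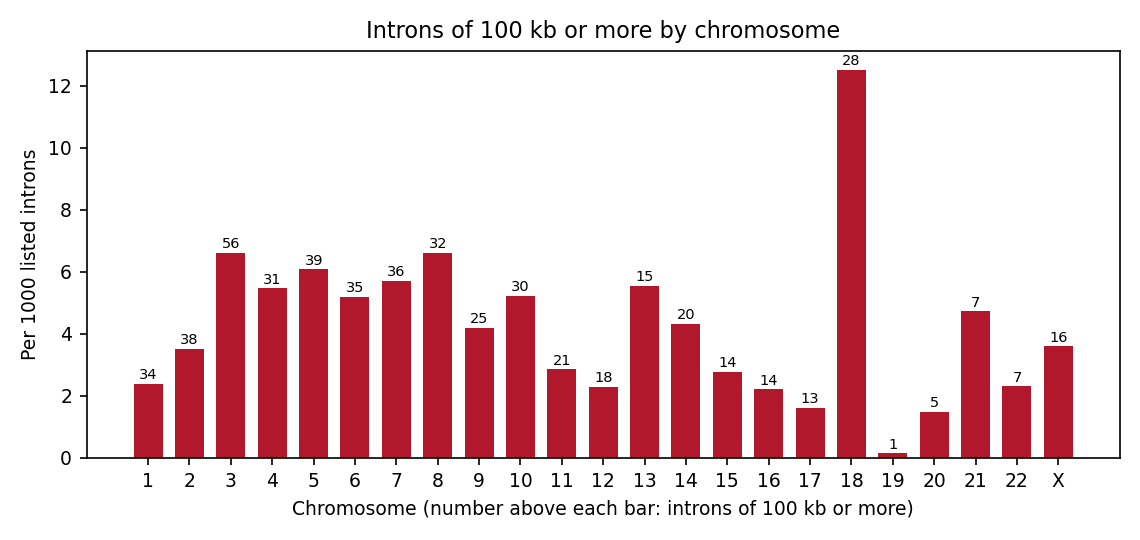
Introns of 100 kb or more per 1000 introns on each chromosome. Chromosome 18 is highest at 12.5 and chromosome 19 lowest at 0.141.

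The members are those of one annotation in one cell line, and most genes with long introns in the reference are not among the hosts. The reference has 1338 protein-coding genes with an intron of 100 kb or more. Of these, 384 (28.7%) were hosts, 415 (31%) were listed with shorter introns and exons only, 56 (4.19%) were listed with an exon of 100 kb or more and no such intron, 39 (2.91%) were listed without introns and 444 (33.2%) were not listed under their names. That leaves 66.8% listed (64.2 to 69.3%), against 61.5% of all protein-coding genes. Where the longest reference intron was 50 to 100 kb, 71.9% were listed (69.8 to 73.9%). The share was 69% at 10 to 50 kb, 60.6% at 1 to 10 kb and 23.7% under 1 kb. Genes listed under names that could not be matched to the reference, among them 19 hosts, are not counted in these shares. The shares of listed genes and of hosts may therefore be too low. By matched names, genes with introns of 100 kb or more were thus not listed less often than genes in general. They were listed less often than genes whose longest intron was 50 to 100 kb. The listed exons of 100 kb or more numbered 140 in 116 genes, 92 of them internal exons. Hosts had one in 38 cases (9.2%), against 78 (0.647%) of the other genes with introns. The longest was in DLG2, a synaptic scaffold, at 1518867 bases, followed by a final exon at chromosome 21 under the name PRMT2 at 960752, which touches the locus named S100B, and by PTPRD at 876934 and PDE4D at 772942. Such rows count as exon here, and whether the reference has an intron at the same place was not tested.

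Of the 413 hosts 394 had a name in the reference, 391 of them as protein-coding genes. A reference intron of exactly the same length existed for 421 members (78.7%, against 86.3% of all introns). Of the 88 others in named genes, 29 differed from the closest reference intron by up to 0.1% of its length, 7 by up to 1% and 52 by more. The 300-base promoters from RefSeq that matched 324 of the hosts had a median of 65% G and C, as did those of other genes, and 25 CpG pairs against 26. The letters TATAAA, sought on both strands, were found in 6.48% of the promoters of hosts and in 5.68% of those of other genes.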

How the data were processed

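The study sequenced 6 poly(A)-selected libraries, 3 of U-87 MG cells in DMSO and 3 in EPZ015666. The deposited table used here is 1 exon annotation made by the authors from all libraries, with start and end positions, strand and isoform names, and with no value per library. Per the submitters' processing notes the build was hg19 and the tools included RSEM, DESeq 1.10.1, bedtools 2.20.1, STAR 2.4.1d and Bowtie 1.0.1. The sources used here do not give how each was used or what the isoform names mean. The planned comparison of EPZ015666 with DMSO was therefore not run. Depth is unknown.

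Consecutive rows under one isoform name, chromosome and strand were read in file order as an isoform. A new isoform was begun where the 5′ to 3′ order restarted. Of 382567 exon rows, 76 with the end before the start were dropped. At 10093 places where neighbouring exons overlapped, the later exon alone was kept. No intron was counted between them, and the intron ahead was measured to the exon kept. This left 31659 isoforms of 13721 gene names. Rank was taken on the isoform with the most introns. Names were matched to GENCODE release 29 (GRCh38), and introns by length, never by position, since the builds differ. Promoters (300 bases) and microRNAs came from RefSeq. Calculations used Python 3.11.15 and numpy 2.4.6, with figures in matplotlib 3.10.9, and were tested on simulated data. Genes of the text were named by a rule: hosts of the 15 longest members, hosts with 3 or more members, the members with most early ends or genes inside, up to 4 hosts per list, cell type markers, and the 3 introns on each side of the threshold. Groups of like-named hosts were formed by dropping the final number, with symbols of the KIAA, LINC, FAM, ZNF, TMEM and CCDC kinds left out. Other names, and the descriptions of phase, junctions, microRNAs, promoters, chromosomes, related genes and long exons, were chosen after their values were seen. The members and lists were chosen with earlier results of these data known. The values of 1 gene list are not reported here, although it counts among the lists.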

Additional observations from a re-analysis of the deposited data

How the results depend on the processing

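With a threshold of 50 kb there were 1882 introns in 1225 genes, and with 200 kb 82 in 74. The share of first introns was 33.5% and 39% at those thresholds, 35% when the earlier of overlapping exons was kept, 34.2% over members with a reference length and 35.1% with any isoform's first intron. When only final exons wholly inside the intron were counted, 2.24% of members held an early end in place of 7.66% (0.252% and 1.56% of all introns), and with isoforms of 2 or more exons alone it was 7.29%. The share holding another gene was 2.44% at 200 kb (2 introns), 2.43% when any overlap counted and 0.187% on the host strand alone, in place of 0.935%. Leaving out the locus named S100B, an alternative chosen after seeing the data, left 534 introns in 412 genes. The number of lists above all genes stayed at 16 with 50 kb and was 15 with genes of 5 or more introns. No paired analysis was possible because the annotation holds no values per library, and leaving out a replicate was not run for the same reason. The annotation is the authors' selection of isoforms, so a gene or intron missing from it is not shown to be unexpressed. Gene names are theirs too, and 26 members lay under names that the reference does not have.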
